A study of Homo sapiens with 12 samples.

Results

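The HOX cluster genes encode the homeodomain transcription factors of the HOXA, HOXB, HOXC and HOXD clusters. They were chosen by symbol alone, and 39 of 19970 protein-coding genes on chromosomes 1 to 22 and X qualified, 11 in HOXA, 10 in HOXB, 9 in HOXC and 9 in HOXD. Chromatin accessibility over them was examined by ATAC-seq, which tags open DNA with adapters carried by Tn5 transposase. The cells were MIAPaCa2, a human line established from a ductal adenocarcinoma of the pancreas. The 4 groups were parental cells without oxamate, parental cells with oxamate, resistant cells without oxamate and resistant cells with oxamate, each with 3 libraries, and no genetic change was named in the labels for any of them. Oxamate is a competitive inhibitor of lactate dehydrogenase A, the enzyme that interconverts pyruvate and lactate, and untreated cells received phosphate-buffered saline. Resistant cells were the survivors of prolonged culture of the parental line in oxamate, so they represent 1 selection from 1 line. Nothing in the labels states whether replicates came from separate cultures, so p-values measure the spread between these libraries, which may be technical.

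HOX genes lie in their clusters in the order in which they act along the head to tail axis of the embryo. Genes with low paralog numbers, at one end of a cluster, act anteriorly, and those with high numbers act posteriorly. In adult cells a combination of HOX genes is kept active while the others are held silent, largely by Polycomb proteins that mark the chromatin of whole stretches of a cluster. Accessibility at a gene is not expression, and no RNA was used here.

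The deposited lists hold broad peaks called in each library, without read counts. A gene was counted as having a peak where a peak overlapped its span extended by 1 kb on both sides, and covered bases are the bases of that window that lay in peaks. The lists held 45748 to 62414 peaks covering 13.8 to 33.7 Mb, and relative depth, recovered from the peaks as described in the methods, spanned 1 to 2.77. The smallest peak width, which follows the fragment length, was 67 to 87 bp in parental and 94 to 124 bp in resistant libraries, so that fragment length and resistance cannot be told apart. Treated parental lists covered the least, at 13.8 to 19.4 Mb. The line's label was checked against markers: the epithelial genes KRT8, KRT18 and CDH1 and the mesenchymal genes VIM and ZEB1 had a peak in 12 of 12 libraries, but the ductal keratin KRT19 had one in 10 and the epithelial gene EPCAM in 6. The T cell gene CD3E and the beta cell gene INS had a peak in 0, the acinar gene PRSS1 in 1 and the leukocyte gene PTPRC in 2. CDKN2A, which is deleted in this line, had a peak in 0 of 12 libraries, whereas PECAM1 and COL1A1, markers of endothelium and fibroblasts, had one in 12.

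The promoters of HOXA13, HOXA7, HOXC4 and HOXD13 show the range of accessibility at HOX start sites. Each is a RefSeq promoter of 300 bases (GRCh38.p14), from 250 bases before to 50 bases after the gene's listed start, read on the gene's own strand. Capitals mark GC boxes (GGGCGG or its reverse complement CCGCCC) and CCAAT boxes (CCAAT or its reverse complement ATTGG). HOXA13, which patterns the distal limb and the hindgut, has its promoter at chr7:27200042-27200341 on the minus strand and was the only one of 20 HOX promoters with a peak in 12 of 12 libraries. The HOXA7 promoter, at chr7:27156626-27156925 on the minus strand, had a peak in 0 libraries. HOXC4, at chr12:54016638-54016937 on the plus strand, shares this promoter with HOXC5 in the table and had a peak in 6 libraries. HOXD13, a partner of HOXA13 in limb patterning, has its promoter at chr2:176092471-176092770 on the plus strand with a peak in 0 libraries.
HOXA13: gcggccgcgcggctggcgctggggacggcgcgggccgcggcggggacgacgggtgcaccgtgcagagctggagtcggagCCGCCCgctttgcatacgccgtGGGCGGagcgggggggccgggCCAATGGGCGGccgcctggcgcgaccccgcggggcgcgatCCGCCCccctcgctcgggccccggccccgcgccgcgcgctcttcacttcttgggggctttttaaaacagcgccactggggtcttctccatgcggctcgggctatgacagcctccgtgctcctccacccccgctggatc
HOXA7: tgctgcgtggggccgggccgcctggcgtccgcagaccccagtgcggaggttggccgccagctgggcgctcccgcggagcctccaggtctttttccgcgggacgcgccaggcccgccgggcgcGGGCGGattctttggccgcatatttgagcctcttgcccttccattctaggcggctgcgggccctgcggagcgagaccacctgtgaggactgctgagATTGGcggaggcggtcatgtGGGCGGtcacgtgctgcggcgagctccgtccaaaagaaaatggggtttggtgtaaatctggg
HOXC4: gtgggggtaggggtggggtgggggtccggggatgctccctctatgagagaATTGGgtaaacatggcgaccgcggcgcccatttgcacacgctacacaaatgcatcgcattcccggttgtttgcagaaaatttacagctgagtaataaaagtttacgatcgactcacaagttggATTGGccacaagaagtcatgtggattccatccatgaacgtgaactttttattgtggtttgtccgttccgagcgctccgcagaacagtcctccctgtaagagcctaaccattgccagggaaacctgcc
HOXD13: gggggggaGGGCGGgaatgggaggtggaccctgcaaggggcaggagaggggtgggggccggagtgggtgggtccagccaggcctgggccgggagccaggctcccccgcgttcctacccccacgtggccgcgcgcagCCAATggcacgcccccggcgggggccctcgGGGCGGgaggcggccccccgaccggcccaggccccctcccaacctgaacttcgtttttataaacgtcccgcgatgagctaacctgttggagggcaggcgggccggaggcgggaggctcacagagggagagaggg
The HOXA13 promoter had 76.3% G and C with 44 CpG dinucleotides and 4 GC boxes, and HOXA7 had 68% with 31 and 2. HOXD13, with 74% G and C and 24 CpG dinucleotides, also held 2 GC boxes.

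The HOX promoters that could be matched were called less often than promoters in general. RefSeq promoters were matched for 20 of the 39 genes, and 16 of these 20 (80%) had a peak in 0 of 12 libraries, against 35.7% of 15811 coding promoters. HOXB1 was the only HOXB gene among the 20, and HOXC4 and HOXC5, the only HOXC genes, share the same bases. HOXB, the longest cluster and the one with the most peaks, is thus nearly absent from these shares. Among promoters rich in CpG (at least 55% G and C and a CpG ratio of at least 0.6), 9 of 11 HOX promoters (81.8%) had a peak in 0 libraries, against 14.3% of 9459. A peak in 12 libraries was found at 5% of HOX promoters and at 51.0% of all. CCAAT boxes were found at a higher share in HOX promoters than in all. On either strand 17 of 20 (85%) held one, with HOXC4 and HOXC5 both counted, against 36.3% of all coding promoters. The homeodomain core TAATTA was in only 2 of 20 (10%), against 3.35%. The pattern TGATNNAT, bound by HOX proteins with their PBX partners, was in 3 of 20 (15%) against 4.99%. TATAAA was in 4 of 20 (20%) against 9.64%, and GGGCGG in 10 of 20 (50%) against 58.5%. A match is a string of letters and not a measured binding site.

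**Figure D1:**
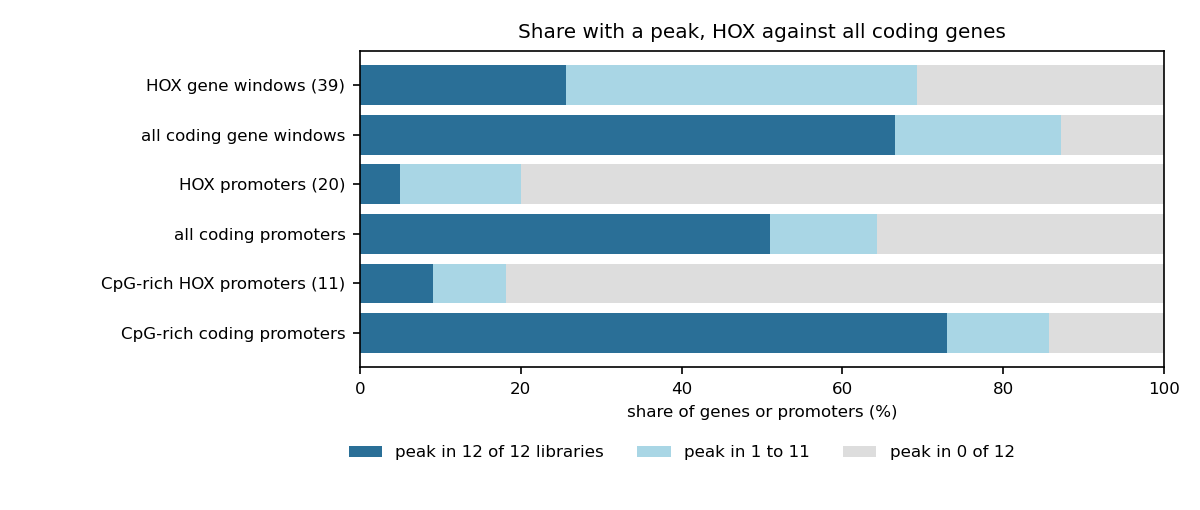
Share of genes or promoters (percent, x axis) with a peak in 12, in 1 to 11 or in 0 of the 12 libraries, for HOX genes and for all coding genes. The grey part, no peak in any library, reaches 30.8% of HOX gene windows against 12.8% of all, with window lengths not matched. It reaches 80% of the 20 matched HOX promoters, few of them from HOXB or HOXC, against 35.7%.

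Whole gene windows gave the same order by presence of a peak. A longer window has more room for a peak, and window lengths were not matched. Only 10 of the 39 HOX genes (25.6%) had a peak in 12 libraries, namely HOXA3, HOXA13, HOXB3, HOXB6, HOXB9, HOXB13, HOXC4, HOXC5, HOXC6 and HOXD13, whereas 66.5% of coding genes did. A further 17 genes had a peak in 1 to 11 libraries, and 12 (30.8%) in 0, against 12.8% of coding genes. By bases the order was not the same. Peaks covered 0.84 to 1.96% of all coding gene windows, depending on the library. They covered 1.25 to 7.01% of the whole HOXA cluster, 1.53 to 6.82% of HOXB, 1.30 to 3.37% of HOXC and 1.03 to 2.64% of HOXD. The windows without any peak were HOXA4, HOXA5, HOXA6, HOXA7 and HOXA9 in HOXA, HOXB4 in HOXB, HOXC11, HOXC12 and HOXC13 in HOXC, and HOXD1, HOXD4 and HOXD12 in HOXD. They include HOXA9 and HOXB4, known for their roles in blood progenitors, HOXA5, which acts in the lung, and HOXC13, which acts in the hair follicle. The window of HOXA9 stopped just short of a region called in 12 libraries, which lay 1051 bp from the gene. By position, 2 of 8 anterior genes (paralogs 1 to 3), 4 of 15 central genes (paralogs 4 to 8) and 4 of 16 posterior genes (paralogs 9 to 13) had a peak in 12 libraries. Several windows share bases: HOXC4, HOXC5 and HOXC6 begin at the same coordinate, the HOXA3 span holds HOXA4, HOXA5 and HOXA6, and the HOXB3 span holds HOXB4. Their peaks are therefore not independent, and the peaks of HOXA3 and HOXB3 lay outside the windows of HOXA4 to HOXA6 and HOXB4.

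**Figure D2:**
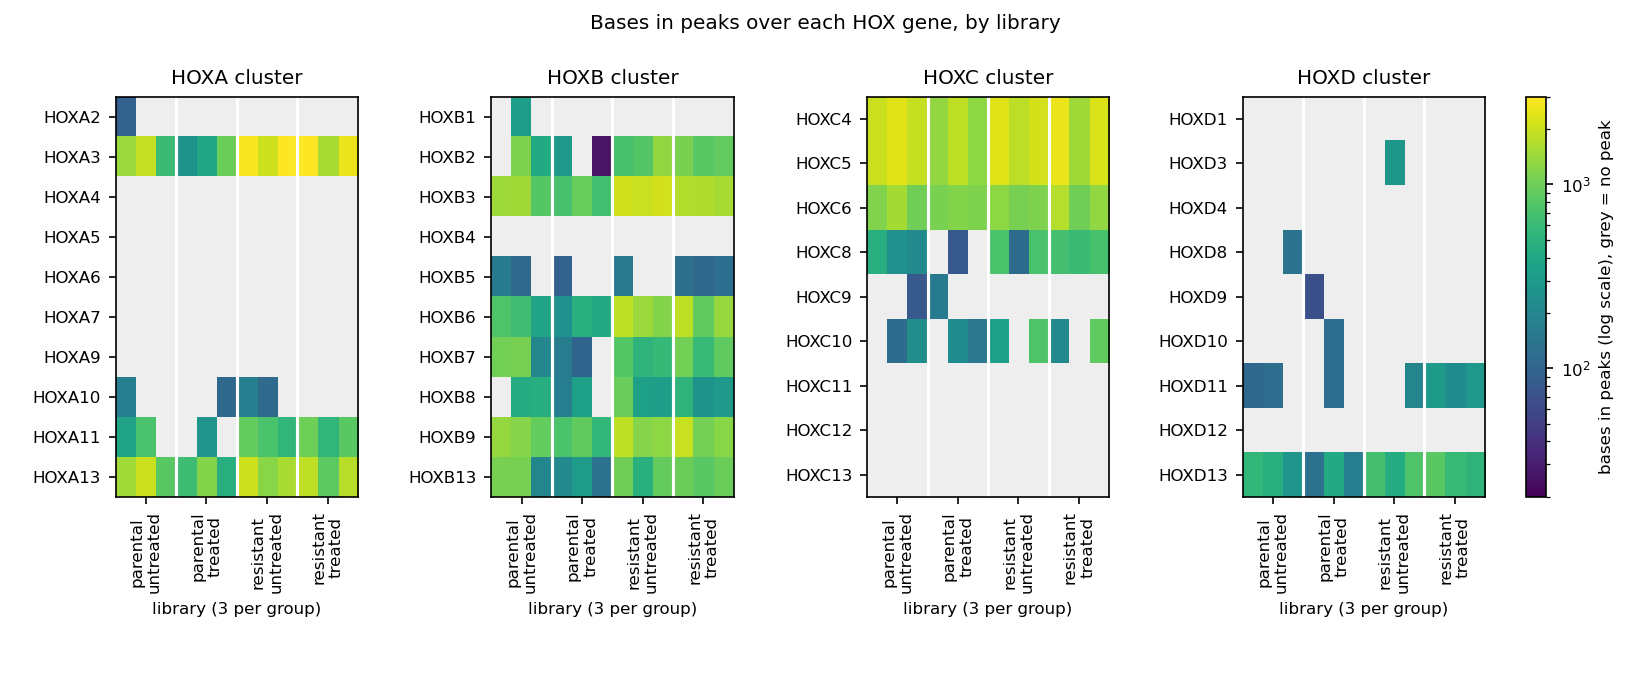
Bases in peaks (colour, log scale) over the window of each HOX gene reported here (rows, by paralog number) in each of the 12 libraries (columns, 3 per group). Grey cells have no peak; HOXA4 to HOXA9 and HOXC11 to HOXC13 are grey throughout, while HOXC4, HOXC5 and HOXC6 are filled in every library.

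Single libraries held a peak at 14 to 20 of the 39 genes. In parental cells the mean was 18.3 ± 1.53 genes without and 16 ± 1.73 with oxamate, and in resistant cells 18.3 ± 0.577 without and 18.7 ± 0.577 with it (SD, n = 3 each). Treated parental libraries held 14 to 17 such genes and treated resistant ones 18 to 19, without overlap, while the untreated groups overlapped. Of all coding genes, 71.4 to 75.7% had a peak in treated parental and 74.8 to 77.8% in treated resistant libraries, ranges that overlapped. In no HOX gene was a peak present in 3 of 3 libraries of one group and in 0 of 3 of the other, in treated against untreated parental cells (background 0.854% of genes), treated against untreated resistant cells (0.145%), resistant against parental cells untreated (0.357%) or treated (1.29%). HOXD11, which acts in the forearm and the kidney, had peaks in 3 of 3 treated resistant libraries and in 1 of 3 treated parental ones.

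The clusters were then followed base by base. Merged peaks formed 80 regions in the 4 clusters, of which 18 (22.5%) were called in 12 libraries, against 13.6% of 178040 regions over all chromosomes. A further 31 (38.8%) were called in 1 library, against 59.5% over all chromosomes. HOXB held 39 regions over 202225 bp, HOXA 17 over 109099 bp, HOXD 13 over 105421 bp and HOXC 11 over 119200 bp. Of the 18 shared regions, 11 lay inside a HOX gene span and 6 lay more than 1000 bp from every HOX gene. At HOXA they were at chr7:27113114-27114732 and chr7:27136015-27136867 within the HOXA3 span, chr7:27160537-27161387 between HOXA7 and HOXA9 (1051 bp from HOXA9), and chr7:27199011-27201311 at HOXA13. The HOXC cluster had a broad shared region at chr12:54016726-54018570, at the common start of HOXC4, HOXC5 and HOXC6. Its bounds are those of the merged peaks, and peaks reached the promoter window of HOXC4 and HOXC5 in 6 libraries only. In HOXB, chr17:48678168-48679030 lay 45733 bp from HOXB13 in the long interval between HOXB9 and HOXB13, within the noncoding gene LINC02086. Although the HOXD13 promoter window had no peak, chr2:176088098-176088867 within the longer HOXD13 span and chr2:176096604-176098058, 660 bp beyond it, were called in every library.

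Long stretches carried no region called in 3 or more libraries. In HOXA this stretch was chr7:27136868-27160536 (23.7 kb), over HOXA5, HOXA6 and HOXA7. In HOXC it ran from the cluster's edge, chr12:53937831-53989063 (51.2 kb), over HOXC11, HOXC12 and HOXC13, and in HOXD it was chr2:176141193-176191907 (50.7 kb), over HOXD1, HOXD3 and HOXD4. The HOXB stretch, chr17:48679031-48724595 (45.6 kb), held no HOX gene.

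**Figure D3:**
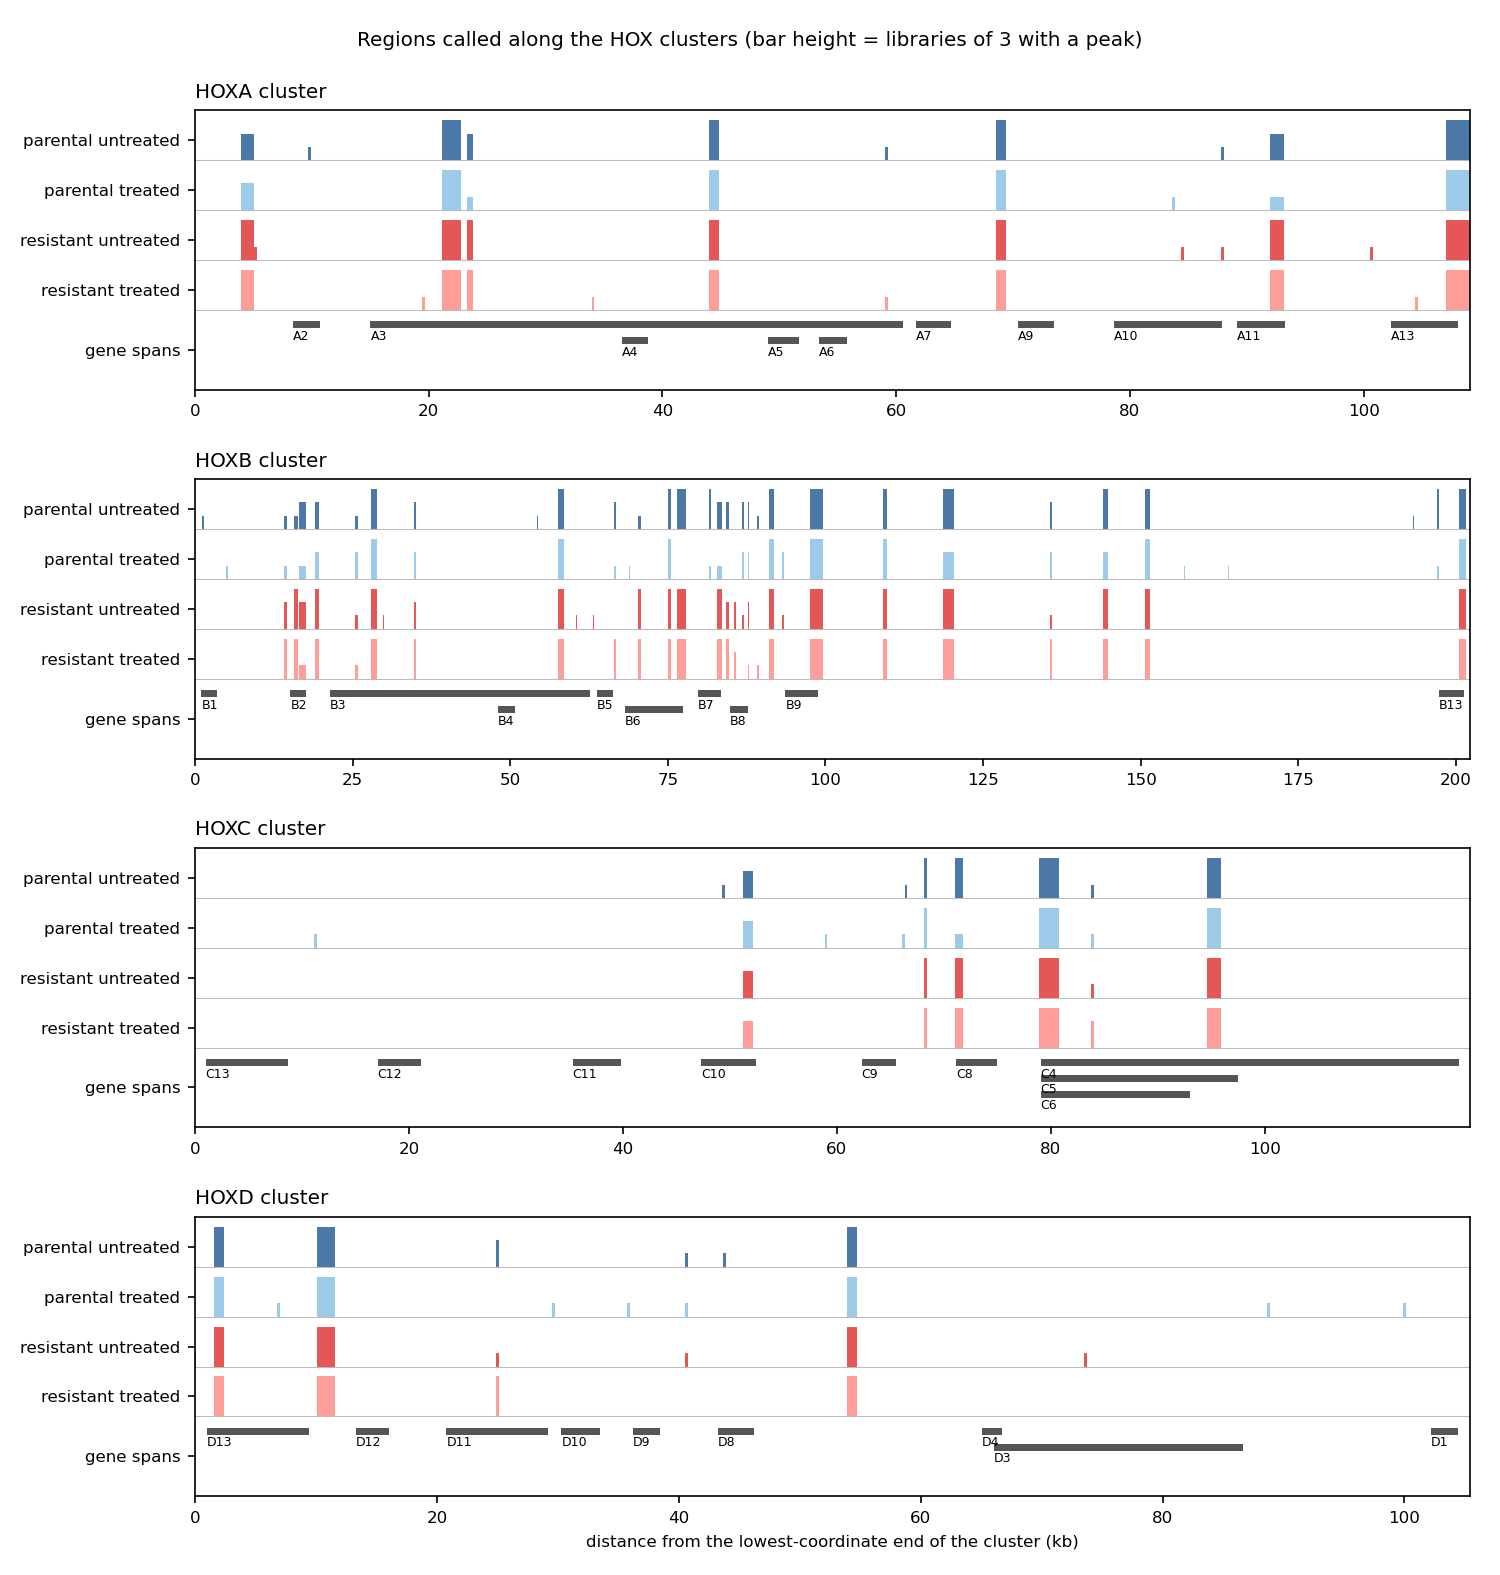
Regions with a peak along each cluster (x axis, kb from its lowest-coordinate end), 1 row per group, with bar height the number of 3 libraries called and the spans of the genes reported here in grey below. The 18 regions called in 12 libraries recur in all 4 groups, 31 of the 80 stand in 1 library, and the stretches over HOXA5 to HOXA7, HOXC11 to HOXC13 and HOXD1 to HOXD4 are nearly empty.

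The groups were then compared by the extent of peaks over whole clusters. Over HOXA, peaks covered 4487, 5478 and 2019 bp in untreated parental, 1368, 2216 and 1933 bp in treated parental, 7650, 4838 and 6276 bp in untreated resistant and 6973, 3844 and 6245 bp in treated resistant libraries. Every treated resistant library was above every treated parental one, while untreated groups overlapped. Over HOXB, the values were 8754, 10597 and 5428 bp in untreated parental, 3402, 4929 and 3089 bp in treated parental, 13795, 9617 and 10914 bp in untreated resistant and 13362, 9980 and 10730 bp in treated resistant libraries. All treated parental libraries were below all others. Over HOXC the group means were 2749 ± 182, 1892 ± 441, 3198 ± 933 and 3308 ± 986 bp in the same order of groups, and over HOXD 1775 ± 190, 1481 ± 345, 2365 ± 397 and 2285 ± 187 bp (SD, n = 3 each).

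Each list's total extent moved with these values. Divided by the bases covered in each list and returned to the mean extent, HOXA means were 3947, 2562, 5186 and 5082 bp and HOXB means 8249, 5376, 9513 and 10362 bp in the same order of groups. Scaled HOXC means, at 2804, 2679, 2657 and 2961 bp, turned the untreated difference between resistant and parental cells from higher to lower. Scaled HOXD means, at 1802, 2158, 1997 and 2098 bp, turned the treatment differences in parental and in resistant cells from lower to higher and the treated difference between resistant and parental cells from higher to lower. Over HOXB the treatment difference in resistant cells also turned, from lower to higher. The other HOXB differences and all 4 HOXA differences kept their direction. The clusters held 32 to 47 peaks per library, and their mean widths were 384 ± 77.6, 242 ± 47.1, 555 ± 111 and 537 ± 76.7 bp in the same order (SD, n = 3 each), against 393, 315, 516 and 495 bp over the whole lists.

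**Figure D4:**
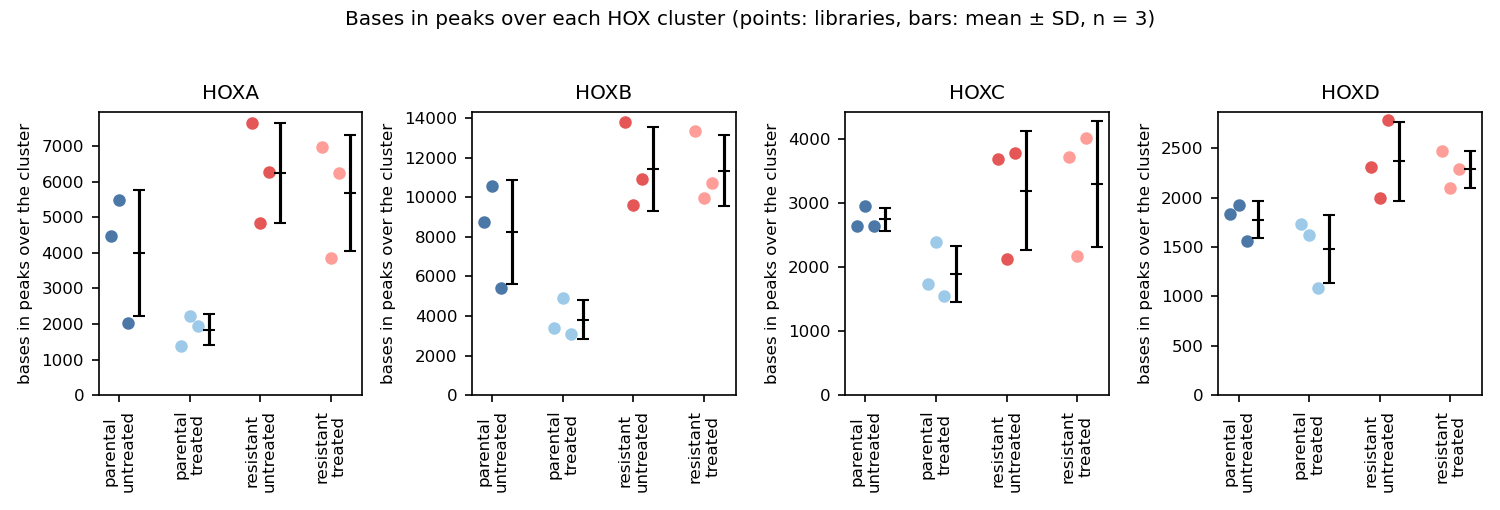
Bases in peaks over each cluster (y axis, bp, from 0) in each library (points) with the mean ± SD of 3 libraries (bars). In HOXB the 3 treated parental libraries are the lowest of all 12, and in HOXA they lie at 1368 to 2216 bp, a range that also holds untreated parental replicate 3 at 2019 bp.

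Single genes were tested next, with limma on log2(covered bases + 100 bp) over 16072 genes with a peak in at least 3 libraries. Of the 39 HOX genes 20 passed that filter, and the values below describe those 20. With both treatments averaged, 10 of 20 HOX genes were higher in resistant cells and 0 lower, where the background over all genes tested was 32.4% higher and 0.33% lower. The median difference of the 20 genes was 0.85 on the log2 scale, against 0.38 for all genes. After division by the bases covered in each list, 3 of 20 remained higher (HOXA3, HOXB6 and HOXC8; background 4.41% higher and 1.39% lower), and the medians were 0.53 and -0.01. Exact permutation of the libraries within each treatment left 3 of 20 higher after adjustment (HOXA3, HOXB3 and HOXB6; background 11.3%), each at p = 0.005, the smallest this design can give. The count fell to 5 without resistant treated replicate 1 and to 6 without resistant untreated replicate 1.

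Among treated cells 11 of 20 HOX genes were higher in resistant than in parental cells and 0 lower, against a background of 33.9% higher and 0.373% lower. Divided by the bases covered, 4 remained (HOXA3, HOXB6, HOXB7 and HOXC8), where the background was 6% higher and 1.47% lower. The count was 6 without parental treated replicate 1 and 5 without parental treated replicate 3, resistant treated replicate 1 or resistant treated replicate 3. Among untreated cells limma called 0 of 20 (background 0.0622% higher). An unadjusted p under 0.05 was found at 3 of 20, beside 1724 of all 16072 genes. Groups did not overlap at 13 of 20 genes in treated cells (background 48.7%) and at 3 in untreated cells (HOXA3, HOXB3 and HOXB6; background 17.9%), each time with resistant cells higher. The share in untreated cells was thus near its background.

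Of the anterior genes, HOXA3, which acts in the pharyngeal arches, had 1404, 1894 and 610 bp in peaks in untreated parental, 261, 395 and 968 bp in treated parental, 2847, 2058 and 2969 bp in untreated resistant and 2979, 1557 and 2596 bp in treated resistant libraries. All resistant libraries were above the parental ones of the same treatment. Averaged over treatment, HOXA3 was higher in resistant cells by 1.56 ± 0.31 on the log2 scale (SE, adjusted p = 0.00697, limma), and by 1.16 after scaling (adjusted p = 0.016). HOXB3, its paralog in the hindbrain, had 1435, 1479 and 807 bp, 701, 945 and 655 bp, 2098, 1977 and 2143 bp, and 1668, 1664 and 1557 bp in the same order of groups. HOXB3 was higher in resistant cells by 0.88 ± 0.15 (SE, adjusted p = 0.0038), and by 0.46 after scaling, which did not pass (adjusted p = 0.0706). HOXB2, which patterns the hindbrain, had 0, 1136 and 430 bp in untreated parental and 297, 0 and 26 bp in treated parental libraries. Its resistant libraries held 699, 779 and 1335 bp untreated and 1101, 828 and 899 bp treated, so that only the untreated groups overlapped. The difference in HOXB2 was 1.96 ± 0.54 (SE, adjusted p = 0.0218). Without resistant treated replicate 1 the adjusted p of HOXB2 was 0.0519.

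Of the central genes, HOXB6, expressed in the posterior trunk and in erythroid progenitors, had 754, 646 and 372 bp in untreated parental, 251, 466 and 424 bp in treated parental, 1840, 1405 and 1176 bp in untreated resistant and 1865, 878 and 1384 bp in treated resistant libraries. Every resistant library exceeded every parental one. HOXB6 was higher by 1.40 ± 0.22 (SE, adjusted p = 0.00322), and by 1.01 after scaling (adjusted p = 0.00397). HOXB7, a neighbour of HOXB6 in the trunk, had 1042, 1081 and 204 bp, 165, 101 and 0 bp, 806, 523 and 569 bp, and 1040, 588 and 878 bp in the same order. Its treated parental libraries were below all others, and the remaining groups overlapped. HOXC8, which patterns the thoracic region, had 473, 254 and 218 bp, 0, 79 and 0 bp, 722, 117 and 705 bp, and 691, 611 and 692 bp. The averaged difference was 1.18 ± 0.36 for HOXB7 (SE, adjusted p = 0.0312) and 1.52 ± 0.34 for HOXC8 (SE, adjusted p = 0.011). Among treated cells HOXB7 was higher in resistant cells by 2.39 ± 0.51 (SE, adjusted p = 0.00831) and HOXC8 by 2.65 ± 0.49 (SE, adjusted p = 0.00503). With treated parental values this low, the size depended on the settings. Over the alternatives listed in the methods it was 1.18 to 3.83 for HOXB7 and 0.96 to 5.02 for HOXC8. HOXC4 and HOXC5, whose peaks over the tested windows were identical in every library, had 2005, 2415 and 1918 bp in untreated parental, 1326, 1851 and 1292 bp in treated parental, 2411, 1815 and 2155 bp in untreated resistant and 2608, 1458 and 2255 bp in treated resistant libraries. They had the longest covered stretch of the HOXC genes, and their averaged difference of 0.23 ± 0.15 did not pass (adjusted p = 0.233). It was -0.20 after scaling. HOXC6 lay at 0.06 ± 0.14 (adjusted p = 0.72), and at -0.36 after scaling.

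Of the posterior genes, HOXA11, which acts in the uterus and the kidney, had 373, 715 and 0 bp in untreated parental, 0, 274 and 0 bp in treated parental, 916, 732 and 536 bp in untreated resistant and 991, 543 and 836 bp in treated resistant libraries. Treated groups did not overlap, and HOXA11 was higher in resistant cells by 1.88 ± 0.50 (SE, adjusted p = 0.0188). HOXB9, a thoracic gene, had 1355, 1214 and 920 bp, 726, 888 and 547 bp, 1853, 1204 and 1276 bp, and 1962, 1053 and 1236 bp. HOXB13, best known from the prostate, had 1071, 1076 and 201 bp, 210, 313 and 129 bp, 1007, 483 and 916 bp, and 974, 831 and 971 bp. At both genes the untreated groups overlapped and the treated groups did not. Their averaged differences were 0.57 ± 0.18 (SE, adjusted p = 0.0339) for HOXB9 and 0.98 ± 0.34 (SE, adjusted p = 0.0455) for HOXB13. HOXD13 had 548, 471 and 275 bp, 131, 432 and 172 bp, 681, 445 and 750 bp, and 825, 591 and 522 bp, and was higher in resistant cells by 0.83 ± 0.25 (SE, adjusted p = 0.0274). HOXD11 had 108, 120 and 0 bp, 0, 122 and 0 bp, 0, 0 and 196 bp, and 306, 227 and 288 bp. Its difference passed among treated cells only, at 1.51 ± 0.54 (SE, adjusted p = 0.0482). HOXA13 had the largest covered share of any HOX window, 17.2% on average, with 1510, 1997 and 834 bp, 634, 1191 and 473 bp, 2046, 1220 and 1577 bp, and 1870, 845 and 1743 bp. Its groups overlapped, and its averaged difference of 0.54 ± 0.27 did not pass (adjusted p = 0.133).

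The averaged calls at HOXA3, HOXA11, HOXB3, HOXB6 and HOXC8 passed whichever single library was left out. HOXB7 lost its call without parental treated replicate 3, resistant untreated replicate 1 or 3, or resistant treated replicate 1 or 3 (adjusted p up to 0.0752), and HOXD13 without parental untreated replicate 3, parental treated replicate 1, resistant untreated replicate 1 or 3, or resistant treated replicate 1 (up to 0.0707). HOXB9 lost it without parental untreated replicate 3, parental treated replicate 1 or 3, resistant untreated replicate 1, or resistant treated replicate 1 or 3 (up to 0.084). HOXB13 lost it without any of 8 libraries, all but parental untreated replicates 1 and 2, parental treated replicate 2 and resistant untreated replicate 2 (up to 0.105). Among treated cells HOXA3, HOXB3, HOXB6, HOXB7 and HOXC8 passed whichever library was left out. Of these, HOXB6 lost its call among treated cells when peaks with a −log10 q under 3 were dropped (adjusted p = 0.239, limma). HOXB3 lost it when divided by the bases covered or centred on the median gene (adjusted p up to 0.182, limma).

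**Figure D5:**
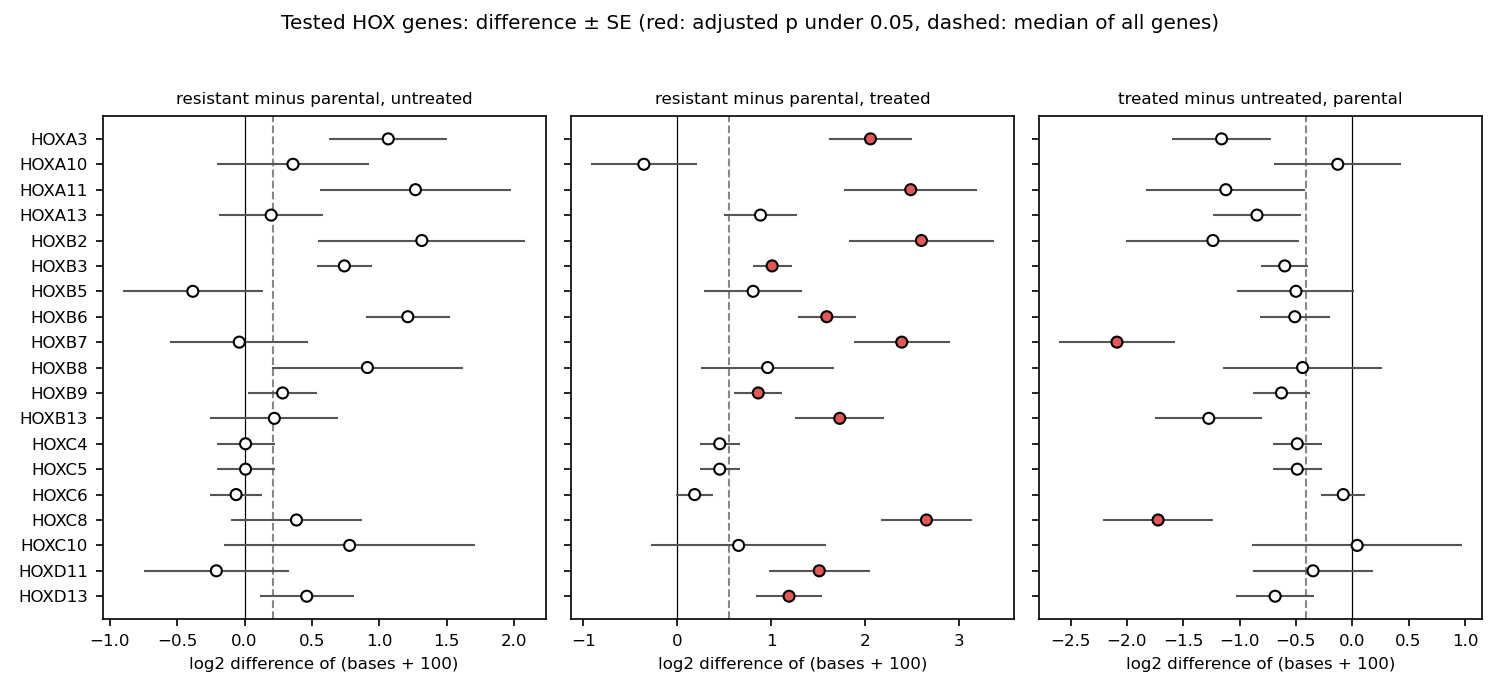
Log2 difference of (bases + 100) with its SE for the tested HOX genes reported here in 3 comparisons, red where the adjusted p was under 0.05 and with the median of all genes dashed. In untreated cells no gene passed, in treated cells 11 did, and on treatment of parental cells HOXB7 and HOXC8 did.

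The response to oxamate was compared within each cell type. In parental cells limma called 2 of 20 HOX genes lower on treatment, HOXB7 and HOXC8, and 0 higher, against a background of 9.16% lower and 0.0871% higher. HOXB7 fell by 2.09 on the log2 scale (SE 0.51, adjusted p = 0.0335) and HOXC8 fell by 1.72 (SE 0.49, adjusted p = 0.0493). Over the alternatives listed in the methods the difference was -3.43 to -1.01 for HOXB7 and -3.89 to -0.51 for HOXC8. Treated libraries lay below all untreated ones at 5 of 20 genes (HOXB7, HOXB9, HOXC4, HOXC5 and HOXC8), against a background of 33.9%. The median difference of the 20 genes was -0.55, against -0.41 for all genes. Divided by the bases covered in each list, limma called 0 of 20 (background 1.57% lower). After this division 5 of 20 had an unadjusted p under 0.05, beside 2678 of all 16072 genes, and the medians were -0.24 and -0.0026. The count of 2 became 0 without parental untreated replicate 1 or 2, parental treated replicate 1, resistant untreated replicate 3 or resistant treated replicate 3. It was 1 without parental treated replicate 3, resistant untreated replicate 1 or resistant treated replicate 1 or 2, and 6 without parental untreated replicate 3. Over the whole HOXA and HOXB clusters, peaks of parental untreated replicate 3 covered fewer bases than those of the other untreated parental libraries. A link of this to the count was not tested.

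In resistant cells limma called 0 of 20 HOX genes on treatment (background 0%), with 1 at an unadjusted p under 0.05 (364 of all 16072 genes). That gene was HOXD11, at 1.37 ± 0.54 (SE, adjusted p = 1), where treated libraries lay above all untreated ones (1 of 20 genes, background 1.21%). HOXB3 was the gene at which all treated resistant libraries lay below all untreated ones (1 of 20, background 5.03%), at -0.33 ± 0.21. Averaged over both cell types, treatment gave 0 of 20 calls by limma (background 0.112% lower) and 0 by exact permutation. With limma, treatment gave 2 of 20 at an unadjusted p under 0.05, beside 3720 of all 16072 genes. It gave 1 call without parental untreated replicate 3. The difference between the responses of both cell types passed at 0 of 20 genes (background 0%). This difference had an unadjusted p under 0.05 at 4 of 20, beside 2086 of all 16072 genes. It was largest at HOXB7, at 2.43 ± 0.72 (SE, adjusted p = 0.235), and HOXC8, at 2.27 ± 0.69 (SE, adjusted p = 0.242). A response of HOXB7 and HOXC8 that differed between parental and resistant cells was therefore not shown.

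Regions were compared in the same way. By Fisher's exact test of 6 resistant against 6 parental libraries, 0 of 9507 regions called in 5 to 7 libraries passed (background 0%). An unadjusted p under 0.05 was found at 2 of the 11 tested in HOX clusters, both more often called in resistant cells. Of all 9507 regions, 828 had such a p and were more often called in resistant cells, and 257 less often. When peaks with a −log10 q under 3 were dropped, 307 of 6568 regions passed, 279 of them more often called in resistant cells, and 0 of the 7 tested in the clusters. With all peaks, the 2 cluster regions at an unadjusted p under 0.05 were in HOXB, chr17:48543228-48543797 at HOXB2 and chr17:48597854-48598317 at HOXB6. Each had a peak in 6 of 6 libraries from resistant and 1 of 6 from parental cells (Fisher's exact p = 0.0152, adjusted p = 0.133, two-sided). On treatment of parental cells 1 of 68 regions went from 3 of 3 libraries to 0 of 3 (background 1.21%), at chr17:48603953-48605427 within HOXB6. It was called in every resistant library. In resistant cells 1 of 58 regions was gained (background 0.239%), chr17:48593994-48594243, 215 bp from HOXB5. Among untreated cells 2 of 64 regions called in 3 of 3 parental libraries were absent from the resistant lists (background 0.412%), chr17:48609056-48609373 in HOXB7 and chr17:48724596-48724726, 37 bp from HOXB13. Among treated cells 5 of 64 regions had a peak in every resistant and no parental library (background 2.07%): those at HOXB2 and HOXB6 already given, another at HOXB6, 1 beside HOXB8 and 1 in HOXD11. With 3 libraries against 3, an exact test of a single region cannot go below p = 0.1.

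The clusters also carry noncoding genes. All genes of this paragraph were counted over their own span, without the extension of 1 kb. Within the clusters LINC02086, LINC03057, HOXB-AS3 and LOC124902939 had a peak in their own span in 12 libraries. PRAC2, a coding gene beside HOXB13, had 260, 131 and 96 bp in untreated parental, 0, 96 and 0 bp in treated parental libraries and 0 bp in all resistant ones. HOTAIR, a noncoding RNA of the HOXC cluster studied for its link to Polycomb proteins, had one in 0, as had HOXA10-AS and HOXA11-AS. HOXB-AS3 overlaps HOXB6, and peaks carry no strand, so its 914, 758 and 372 bp in untreated parental and 1988, 1405 and 1176 bp in untreated resistant libraries cannot be told apart from those of HOXB6. The microRNA genes MIR10A, MIR10B, MIR196A1, MIR196A2, MIR196B and MIR615 had a peak in their own span in 0 of 12 libraries. These spans are short, and a peak may lie close by. MIR615, at chr12:54033950-54034045, lay within 1 kb of chr12:54032479-54033716, a region called in 12 libraries. The miR-196 family, which targets HOX messenger RNAs, is encoded at 3 of these genes, and its mature 5p sequences are shown because they share 1 seed (bases 2 to 8, in capitals; RefSeq, 5′ to 3′).
hsa-miR-196a-5p: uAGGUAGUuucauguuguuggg
hsa-miR-196b-5p: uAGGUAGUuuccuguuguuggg
The first is encoded by MIR196A1 between HOXB9 and HOXB13 and by MIR196A2 between HOXC9 and HOXC10, and the second by MIR196B between HOXA9 and HOXA10.

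Genes that act with the HOX proteins were examined in the same table. Of 11 TALE homeodomain cofactors, which bind DNA together with HOX proteins, 5 were higher in resistant cells averaged over treatment and 0 lower, among them PKNOX2 at 0.83 ± 0.12 (SE, adjusted p = 0.0027), TGIF2 at 1.93 ± 0.41 (SE, adjusted p = 0.00873) and PBX3 at 0.74 ± 0.16 (SE, adjusted p = 0.00873). Of 28 Polycomb genes 10 were higher and 0 lower, and of 16 tested trithorax and H3K27 demethylase genes 5 and 0. Of 10 genes for CTCF and cohesin, which shape the domains of HOX clusters, 7 were higher and 0 lower, including RAD21 at 0.85 ± 0.13 (SE, adjusted p = 0.00321). CTCF itself was not among the 7. Retinoic acid switches on anterior HOX genes. Of 8 tested genes for its receptors or its degradation, 4 were higher and 0 lower, with the receptor gene RXRA at 1.83 ± 0.32 (SE, adjusted p = 0.00429). These shares stand beside the 32.4% of all genes. CDX2, a ParaHox gene of the intestine, was the only called gene of the 3 tested in its list. It was higher in resistant cells by 2.20 ± 0.28 (SE, adjusted p = 0.0016) and fell by 2.65 on treatment of parental cells (SE 0.40, adjusted p = 0.00794). On that treatment 1 of 11 TALE, 3 of 28 Polycomb, 1 of 16 trithorax, 2 of 10 CTCF and cohesin and 4 of 8 retinoic acid genes were lower and 0 higher, beside the 9.16% of all genes. All values of this paragraph are without division by the bases covered. With that division, 4.41% of all genes were higher in resistant cells and 1.57% lower on treatment of parental cells. Scaled values of these partner genes are not given here.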

How the data were processed

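ATAC-seq libraries had been made from nuclei of MIAPaCa2 cells. Per the study's methods the authors mapped reads with Bowtie2 2.1.0 to hg38 and discarded those that were mitochondrial, duplicated or not uniquely mapped. MACS2 then called broad peaks in each library in paired-end mode, and its version is not given in the sources used here. The deposited lists give a score, the fold over background as a ratio, and −log10 of the p-value and q-value of each peak. Depth is not in the lists. Relative depth was inferred from the fold and −log10 p of the peaks, as the background pileup they imply over the smallest peak width.

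Of 677901 peaks, 0.892% lay outside chromosomes 1 to 22 and X and were dropped. Bases in peaks over each protein-coding gene span extended by 1 kb were summed per library from the RefSeq table (GRCh38), and genes with a peak in at least 3 of 12 libraries were compared with limma 3.58.1 (R 4.3.3) on log2(bases + 100), all 4 groups in 1 fit, Benjamini-Hochberg adjusted over 16072 genes at 0.05. This measure, in place of read counts, records the extent of called peaks and moves with the number and width of peaks in a list. Phenotype and treatment were also tested by exact permutation within strata (400 arrangements), and regions, made by merging overlapping peaks, by Fisher's exact test. Python 3.11.15, numpy 2.4.6, scipy 1.17.1 and pandas 2.3.3 were used, and the scripts were tested on simulated data. Members are given with library values where limma called them in any comparison, where all libraries of one group and none of another had a peak, or where their covered share was the highest or lowest in their cluster; from each partner list at most 3 called genes with the smallest p are named. HOXC4, HOXC6 and PRAC2 were added after their values were seen. A single HOX gene is counted among the members but not reported here by itself. The HOX genes and all lists were chosen with earlier results of these data known. Alternatives were stricter, top-ranked or wider peaks, other gene windows, pseudocounts, filters and scalings, a block by replicate number, and the fit without each library in turn.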

Additional observations from a re-analysis of the deposited data

How the results depend on the processing

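The 10 HOX genes called by phenotype became 3 when covered bases were divided by the bases covered in the list, 4 when centred on the median gene and 3 by exact permutation, and 5 to 11 with 1 library left out. The 11 called among treated cells became 4 under either scaling and 5 to 13 with 1 library left out. The 2 called for treatment of parental cells became 0 with the gene span alone or under either scaling, 1 with −log10 q of at least 3, a pseudocount of 500 bp, no filter or the replicate block, and 0 to 6 with 1 library left out. The 0 called among untreated cells became 1 with −log10 q of at least 3. Treatment gave 0 to 1 calls with 1 library left out, and treatment of resistant cells and the interaction 0 throughout. The cause of these changes was not tested. The labels state no pairing by replicate number. Deviations of same-numbered libraries from their group means correlated at -0.153 to 0.173 across genes. Between untreated and treated resistant libraries they correlated at 0.144, 0.173 and 0.0233 for replicates 1, 2 and 3, and at -0.197 to 0.0719 for unequal numbers. These values do not settle whether the numbers pair libraries. With the block, 9 genes were called by phenotype and 10 among treated cells.

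The median log2 difference of the tested HOX genes stayed above 0 for phenotype (0.44 to 1.12, and 0.73 to 0.98 with 1 library left out) and below 0 for treatment (-0.47 to -0.13, and -0.47 to -0.25). The mean number of HOX genes with a peak, in the order untreated parental, treated parental, untreated resistant and treated resistant, was 12, 9, 14.7 and 15 with −log10 q of at least 3, 16.7, 13.3, 17 and 16.7 with the gene span alone, and 25, 25.3, 26 and 26.3 with 5 kb on both sides. With peaks of at least 124 bp it was 16, 12.3 and 17.3 in the first 3 groups, and with equal numbers of top-ranked peaks 16.3 in untreated parental and 17.3 in untreated resistant libraries. Leaving out 1 library gave 17.5 to 19, 15.5 to 17, 18 to 18.5 and 18.5 to 19. Bases in peaks over the 4 clusters together, at 16778, 9019, 23260 and 22638 bp, became 11266, 5105, 17406 and 17022 bp with −log10 q of at least 3, and treated parental libraries rose to 12774 bp when scaled. With 1 library left out they were 14686 to 19340, 7949 to 9696, 21166 to 25604 and 20692 to 24906 bp. Depth in fragments is unknown, and a missing peak may be a peak under the threshold.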
